A study of Mus musculus with 12 samples.

Results

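The colon of uninjured TSP-1-/- mice was compared with the colon of uninjured wild-type (WT) mice. All 6 arrays titled as water controls were used, 3 of WT and 3 of TSP-1-/- colons, out of 12 arrays in the series. Both groups were C57BL/6 mice that drank plain water, with neither azoxymethane (AOM, which causes mutations in colonic epithelium) nor dextran sulfate sodium (DSS, which injures it). The study's methods describe male mice that were 7 weeks old. The age of the water mice at death is not given in the sources used here. The TSP-1-/- mice lack functional thrombospondin-1 in every cell and from birth, so the contrast is one of lifelong loss. The treatment text that GEO holds for both groups describes another DSS study, with injected thrombospondin peptides, from which controls were exempt, so whether the mice belong to the same experiment as the AOM/DSS mice is not known. Each array measured whole colon RNA of 1 biological replicate on an Affymetrix mouse gene array. A value is a log2 signal relative to a baseline of its own probe. Values of 1 probe can be compared between arrays, values of different genes cannot, and the labelled tissue could not be checked against the level of its markers.

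Thrombospondin-1, the product of Thbs1, is a large secreted glycoprotein of platelets, endothelium and stroma. It binds the receptors CD36 and CD47 and restrains the growth of blood vessels, and its type 1 repeats can release TGF-beta from its latent form. In the gut it is studied mainly in inflamed or neoplastic mucosa, whereas the water pair shows uninjured tissue.

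With limma, 0 of 28815 probes passed a Benjamini-Hochberg adjusted p under 0.05 with at least a 2-fold difference (0% of the probes). At an unadjusted p under 0.05 there were 565 probes (1.96%), of which 274 were higher in TSP-1-/- (0.951%) and 291 lower (1.01%). If no probe differed, this threshold would be expected to pass a share of about 0.05. The 1.96% found lies below that share, so the count is not evidence of a difference. An analysis of variance without limma's moderation also called 0 probes, with 646 at an unadjusted p under 0.05. A mean difference of at least 2-fold was seen for 67 probes with higher values in TSP-1-/- (0.233%) and for 23 with lower values (0.0798%). Since no probe was called, the genes below are described by their array values, "higher" and "lower" refer to group means, and the limma adjusted p of each is 1. In whole tissue, fewer cells of a type and less RNA per cell cannot be told apart.

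Single arrays stood apart, and 3 mice per group limit the precision of every mean. TSP-1-/- replicate 3 was the array farthest from the other 5 for 27.5% of the probes, TSP-1-/- replicate 1 for 18.5%, and each of the others for at most 15.9%. Without TSP-1-/- replicate 3, 889 probes were higher (3.09%) and 1122 lower (3.89%) at an unadjusted p under 0.05, and without both arrays numbered 3 there were 913 (3.17%) and 817 (2.84%), in place of 274 and 291. TSP-1-/- replicate 3 went against the description of male mice. Xist, the RNA that silences an X chromosome in female cells, was at 0.05, -0.18 and -0.15 in WT and at -0.11, 0.20 and 7.90 in TSP-1-/-. The Y-linked genes Eif2s3y, Kdm5d and Uty were at -6.37, -5.58 and -4.09 on TSP-1-/- replicate 3. On the other 5 arrays they ran from -0.22 to 0.15, 0.13 to 0.25 and -0.13 to 0.29. The mean differences of 2.76 for Xist, -1.97 for Eif2s3y, -1.89 for Kdm5d and -1.36 for Uty therefore came from 1 mouse. Without it they were 0.14, 0.17, 0.04 and 0.04.

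The third array of each genotype also shared a low level of Hoxb13 and Hoxa13. Hoxb13, a homeobox gene of the most distal colon, was at 2.48, 1.52 and -3.68 in WT and at 1.70, 2.17 and -4.24 in TSP-1-/-. Hoxa13, which patterns the hindgut, was at 0.11, 0.14 and -3.78 in WT and at 0.79, 0.78 and -3.68 in TSP-1-/-. The list of 9 distal genes that holds both had medians of 0.11, -0.05 and -0.50 in WT and of 0.25, 0.03 and -1.01 in TSP-1-/-. Of these 9 genes, 2 were lowest on WT replicate 3, 3 were lowest on TSP-1-/- replicate 3 and 2 were highest on TSP-1-/- replicate 3, so the list did not move as one. A list of 13 genes of the proximal colon and small intestine had medians of 0.53 and 0.61 on the arrays numbered 3, against -0.08, 0.12, -0.03 and 0.04 on the other 4. Some genes of position along the colon thus differed between replicates, with 1 such array in each genotype. Their part in the other differences was not tested.

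**Figure D1:**
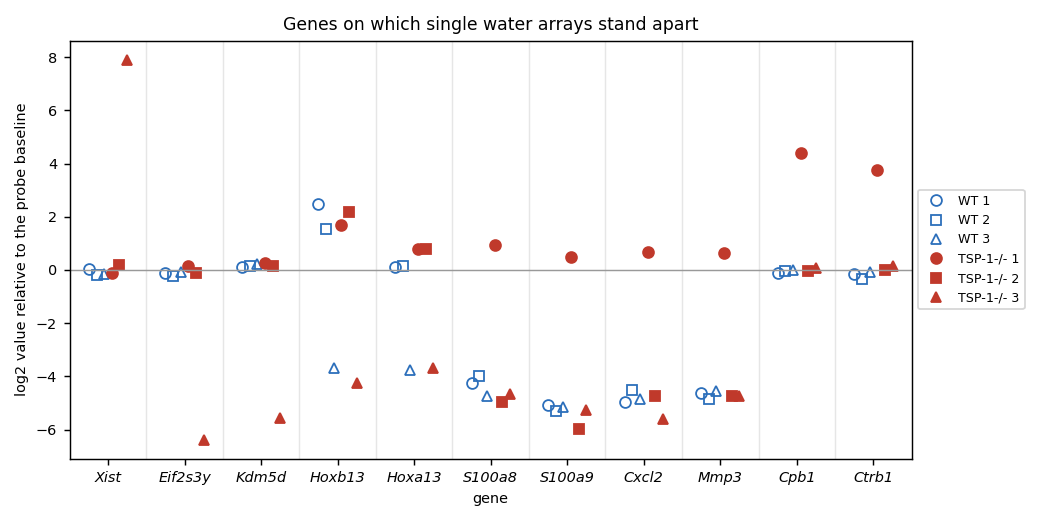
Log2 values relative to each probe's baseline (vertical axis) for 11 genes (horizontal axis) on the 6 water arrays; open blue symbols are WT and filled red symbols TSP-1-/- mice, with circle, square and triangle for replicates 1, 2 and 3. TSP-1-/- replicate 3 is alone at Xist (7.90), Eif2s3y and Kdm5d, both arrays numbered 3 are low for Hoxb13 and Hoxa13, and TSP-1-/- replicate 1 is alone for the other 6 genes.

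Thbs1 itself (probe 10474700) was at -1.36, -0.99 and -0.47 in WT and at -0.00, -0.96 and -1.15 in TSP-1-/- mice. The groups overlapped, with a mean difference of 0.24 (SE 0.33, limma unadjusted p = 0.493), and without TSP-1-/- replicate 1 the difference was -0.11. The article states that these mice keep the gene with a targeted mutation and do not make the protein. It also reports a changed TSP-1 transcript level in them, without naming the groups compared, whereas the water groups overlapped here. The sources used here do not say whether the probe's target lies in the disrupted part of the gene, so it does not check the labels. Of the other thrombospondins, Thbs2, an inhibitor of vessel growth in connective tissue, differed by 0.15, Thbs3 by 0.04 and Comp, a cartilage matrix protein, by 0.26. Thbs4, found in muscle and tendon, was at 0.57, 0.23 and -1.87 in WT and at 1.28, 1.50 and -2.74 in TSP-1-/-. It was lowest on the arrays numbered 3 of both genotypes.

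The receptors and partners of thrombospondin-1 (10 genes) had a median difference of 0.02, beside 0.00 over all 19943 genes. Of the 10, 0 had an unadjusted p under 0.05 in either direction. Over all genes the shares were 0.933% on the higher and 0.802% on the lower side, so this count does not set the 10 apart. Cd36, the scavenger receptor that also takes up fatty acids, was at 0.08, -0.28 and -0.57 in WT and at -1.58, -1.30 and 0.29 in TSP-1-/-. TSP-1-/- replicate 3 lay above all WT arrays and the other TSP-1-/- mice below them. For Adipoq, the fat cell hormone adiponectin, TSP-1-/- replicate 3 was likewise above and the other TSP-1-/- mice below all WT arrays. It was at 0.89, 0.84 and 0.19 in WT and at -0.58, -0.76 and 1.58 in TSP-1-/-. Adipoq had the lowest difference of the 9 adipocyte genes measured. Their median difference was -0.08, with 3 higher and 6 lower. The median levels of the 9 were 0.10, 0.09 and -0.00 in WT and -0.44, -0.38 and 0.29 in TSP-1-/-. TSP-1-/- replicate 3 was the highest array for 6 of the 9, and without it the median difference was -0.53. Itgav, the alpha subunit of integrins that activate TGF-beta, was at -0.84, -1.13 and -0.97 in WT and at -0.29, -0.70 and -0.85 in TSP-1-/- (difference 0.37, SE 0.16, unadjusted p = 0.0569). Its groups overlapped in TSP-1-/- replicate 3. Genes of TGF-beta ligands, receptors and Smads (14 genes) had a median difference of 0.02, the VEGF and angiopoietin system (13 genes) one of 0.05, and the endothelial markers (12 genes) one of 0.06. With each array left out in turn these medians lay between -0.04 and 0.05, -0.05 and 0.11, and -0.01 and 0.24. Of the 13 VEGF and angiopoietin genes 10 were higher, 12 without TSP-1-/- replicate 1 and 4 without TSP-1-/- replicate 3. WT replicate 2 was the lowest mouse for 7 of the 12 endothelial markers.

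All TSP-1-/- arrays lay above all WT arrays, with at least a 1.5-fold mean difference, on 41 single-gene probes (0.188% of 21788). Growth factors and a protease of the stroma were among the 10 of these with the smallest p. Fgf2 (probe 10491699), basic fibroblast growth factor, was at -1.52, -1.45 and -1.39 in WT and at -0.63, -0.94 and -0.59 in TSP-1-/-. Its mean was 1.66-fold higher in TSP-1-/- (log2 0.73, SE 0.13, limma unadjusted p = 0.000460), the smallest p of all probes. Fgf7 (probe 10475643), keratinocyte growth factor, which stromal cells make and epithelial cells receive, was at -1.28, -2.45 and -2.84 in WT and at 0.27, -1.11 and -0.39 in TSP-1-/-. The gap between the groups was narrow, and the mean was 3.44-fold higher (log2 1.78, SE 0.45, unadjusted p = 0.00441). Plau (probe 10413047), the urokinase plasminogen activator, was at -1.76, -2.29 and -1.78 in WT and at 0.14, -0.96 and -0.99 in TSP-1-/-, a 2.53-fold higher mean (log2 1.34, SE 0.31, unadjusted p = 0.00263). TSP-1-/- replicate 1 was the highest mouse for Plau and Fgf7. Without it the log2 differences of Fgf2, Fgf7 and Plau were 0.69, 1.44 and 0.97.

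Ifi205 (probe 10360406), an interferon-inducible gene, was at -1.50, -2.28 and -1.80 in WT and at -0.03, -1.04 and -0.86 in TSP-1-/- (log2 1.21, SE 0.29, unadjusted p = 0.00329). Cpn1 (probe 10467887), the catalytic subunit of carboxypeptidase N, was at 1.21, 1.50 and 0.99 in WT and at 1.77, 2.24 and 1.80 in TSP-1-/- (log2 0.70, SE 0.18, unadjusted p = 0.00467). The other genes of the 10 were Snora7a (a small nucleolar RNA, log2 0.66), Spsb3 (an adaptor of a ubiquitin ligase, 0.61), the predicted genes Gm15998 (0.80) and Gm6377 (0.64), and Sptssb, a subunit of the enzyme that begins sphingolipid synthesis (0.61).

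In the other direction, 17 single-gene probes had all TSP-1-/- arrays below all WT arrays by at least 1.5-fold (0.078%). Sstr1 (probe 10395889), a receptor for somatostatin, which restrains hormone and acid secretion, was at 0.72, 1.12 and 0.60 in WT and at -0.35, 0.13 and -0.11 in TSP-1-/-. Its mean was 1.90-fold lower (log2 -0.93, SE 0.18, unadjusted p = 0.000929). Without any 1 array the log2 difference lay between -1.05 and -0.77. 4930578G10Rik, a gene without an assigned function, was at -0.34, -0.57 and -0.51 in WT and at -2.14, -1.68 and -1.15 in TSP-1-/- (log2 -1.18, SE 0.23, unadjusted p = 0.000969). Trdn, which encodes triadin of the calcium release complex of striated muscle, was at 0.36, 0.16 and 0.12 in WT and at -0.31, -1.42 and -0.53 in TSP-1-/- (log2 -0.97, unadjusted p = 0.00690). TSP-1-/- replicate 2 was the lowest of the 6 mice there. Gpr34, a lysophosphatidylserine receptor of macrophages and microglia, differed by -0.70, Pus7l, a pseudouridine synthase, by -0.88, the small nucleolar RNA gene Rnu3a by -0.81 and 2610318M16Rik by -0.59. Of 2 probes for Tdpoz2, 1 had separated groups (-0.63) and the other did not. The microRNA genes Mir1a-2 and Mir505 complete the 10 and are described with the other microRNAs.

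**Figure D2:**
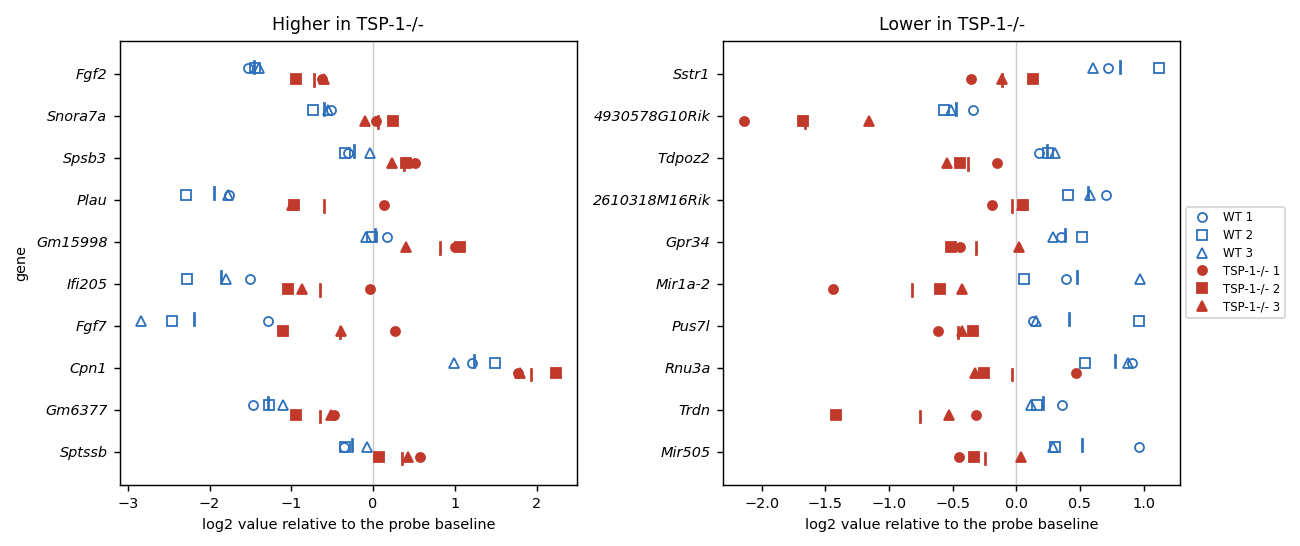
Log2 values relative to each probe's baseline (horizontal axes) of the 10 genes with the smallest p in each direction among single-gene probes with separated groups and at least a 1.5-fold difference (vertical axes); open blue symbols are WT and filled red symbols TSP-1-/- mice, with circle, square and triangle for replicates 1, 2 and 3 and short vertical bars for group means (n = 3). The genes were chosen for separation, so the gaps are part of the choice; the Fgf2 values run from -1.52 to -1.39 in WT and from -0.94 to -0.59 in TSP-1-/-.

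Gm14207 (probe 10486201), a predicted gene, was among the 5 single-gene probes with the most negative mean difference, with the 3 Y-linked genes and Mir1a-2. It was at 0.58, -0.32 and 1.93 in WT and at -0.38, -0.63 and -0.59 in TSP-1-/- mice. The TSP-1-/- values were close together, WT replicate 2 lay just above them, and WT replicate 3 was the farthest from them. The mean difference of -1.26 (SE 0.48, unadjusted p = 0.0309) was -0.63 without both arrays numbered 3. On the AOM/DSS arrays the genotype difference was -3.41 for Gm14207 and -2.72 for Sstr1. Neither was shown to be unequal to that on water (limma interaction on 12 arrays, adjusted p = 0.235 for Gm14207 and 0.235 for Sstr1).

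Of the matrix metalloproteinases and their inhibitors, 13 of 14 genes had higher TSP-1-/- means, with a median difference of 0.90. Without TSP-1-/- replicate 1, 11 were higher and the median was 0.24. Metalloproteinases cut collagens and other matrix proteins, and several are made by stromal cells and macrophages in injured mucosa. Of the list, 1 gene had an unadjusted p under 0.05 on the higher side (0.933% of all genes did), and 3 had all TSP-1-/- arrays above all WT arrays (2.37% of all genes).

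Mmp10, stromelysin 2, was at -5.14, -5.00 and -4.55 in WT and at 0.93, -2.95 and -4.54 in TSP-1-/-. Its mean was 6.55-fold higher (unadjusted p = 0.0505), although TSP-1-/- replicate 3 barely exceeded the highest WT mouse. Mmp13, a collagenase, was at -4.19, -4.71 and -3.56 in WT and at 1.14, -3.34 and -3.0 in TSP-1-/-, a 5.35-fold higher mean (unadjusted p = 0.0532). Without TSP-1-/- replicate 1 the log2 differences were 1.15 and 0.98 in place of 2.71 and 2.42. Mmp3, stromelysin 1, was at -4.62, -4.83 and -4.56 in WT and at 0.63, -4.74 and -4.74 in TSP-1-/-. Only 1 mouse was high, and without it the difference was -0.07. Mmp2, gelatinase A of fibroblasts, was at -1.69, -1.58 and -0.80 in WT and at -0.62, -0.28 and -0.59 in TSP-1-/-, with all TSP-1-/- above all WT (1.82-fold, unadjusted p = 0.00692) and a log2 difference of 0.93 without replicate 1. Mmp9, gelatinase B of neutrophils and macrophages, was at -1.56, -2.03 and -0.21 in WT and at 0.11, -0.71 and -0.22 in TSP-1-/-, overlapping through WT replicate 3. Mmp12, macrophage elastase, differed by 1.24 and Timp1, an inhibitor, by 1.03, and by 0.44 and 0.20 without replicate 1.

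Mmp10, Mmp13, Mmp3 and Mmp7 lie in 1 cluster of metalloproteinase genes on chromosome 9. The bases just before their starts are shown because the first 3 were highest on TSP-1-/- replicate 1 while Mmp7, matrilysin of epithelial cells, was not (at 0.03, 0.31 and 0.01 in WT and at 0.15, 0.52 and -0.13 in TSP-1-/-). The sequences are from RefSeq, build GRCm38.p6, plus strand, 5′ to 3′, and end at the last base before an annotated start. Capitals mark TGANTCA, the core of the site bound by AP-1 (Fos and Jun) factors, which reads the same on both strands.
Mmp10, chr9:7502242-7502341: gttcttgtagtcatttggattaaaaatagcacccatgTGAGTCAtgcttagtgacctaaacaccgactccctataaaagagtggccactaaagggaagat
Mmp13, chr9:7272414-7272513: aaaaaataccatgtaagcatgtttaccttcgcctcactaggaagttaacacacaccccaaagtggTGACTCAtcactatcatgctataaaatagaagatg
Mmp3, chr9:7445722-7445821: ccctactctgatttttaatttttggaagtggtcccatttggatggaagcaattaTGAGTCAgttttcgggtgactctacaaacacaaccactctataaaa
Mmp7, chr9:7691990-7692089: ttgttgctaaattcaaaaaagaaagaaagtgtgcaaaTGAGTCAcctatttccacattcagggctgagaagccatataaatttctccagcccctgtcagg
The motif was searched in the 250 bases before each start. It was present in 6.75% of 32851 windows, and in at least 1 window of 5 of the 12 list genes with a window. The 6.75% is a share of windows and the 5 of 12 a count of genes, so they cannot be compared directly. The genes printed are among those 5. Mmp7 had 2 windows, 1 with the motif, and the stretch printed comes from the window that holds it. Mmp8, which was high on TSP-1-/- replicate 1 alone, had 1 window and 0 with the motif.

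Neutrophil genes were high in 1 TSP-1-/- mouse. The list had 12 of 12 genes with a higher TSP-1-/- mean (median difference 0.97), and 9 were highest on TSP-1-/- replicate 1. Without that mouse 5 were higher and the median was -0.24. S100a9, a subunit of calprotectin, the most abundant cytosolic protein of neutrophils, was at -5.09, -5.28 and -5.16 in WT and at 0.49, -5.99 and -5.26 in TSP-1-/-. S100a8, its partner, was at -4.25, -3.98 and -4.75 in WT and at 0.96, -4.96 and -4.65 in TSP-1-/-. For both, the other TSP-1-/- mice lay within or below the WT range. Cxcr2, the receptor that draws neutrophils toward CXC chemokines, was at 0.35 on TSP-1-/- replicate 1 and at -3.71 to -2.97 on the other 5 arrays. Mmp8, neutrophil collagenase, was at 1.84 against -2.78 to -1.93.

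Csf3r, the receptor for granulocyte colony-stimulating factor, was at -2.42, -2.65 and -0.75 in WT and at -0.72, -1.15 and -0.41 in TSP-1-/- (log2 1.18, unadjusted p = 0.0357). Trem1, which amplifies myeloid inflammation, was at -1.07, -1.74 and -0.56 in WT and at 0.22, -0.63 and -0.34 in TSP-1-/- (log2 0.88, unadjusted p = 0.0253). These were the 2 members with an unadjusted p under 0.05 (0.933% of all genes on the higher side). In each, TSP-1-/- replicate 2 fell below WT replicate 3 and the other TSP-1-/- arrays lay above all WT arrays. Their differences without TSP-1-/- replicate 1 were 1.16 and 0.64. Ly6g, the surface marker of neutrophils, was at -0.02, -2.45 and -5.85 in WT and at -0.17, 0.17 and -6.02 in TSP-1-/-, lowest on the arrays numbered 3.

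The list of epithelial inflammation enzymes and cytokines had a median difference of 0.57, with 14 of 14 genes higher, and of 0.21 with 10 higher without TSP-1-/- replicate 1. Lcn2, an iron-scavenging antibacterial protein, was at -2.47, -2.41 and -2.29 in WT and at 1.50, -2.03 and -2.10 in TSP-1-/-. All TSP-1-/- values lay above WT, replicates 2 and 3 by little (mean 2.86-fold higher, unadjusted p = 0.116, log2 0.33 without replicate 1). Il1b, the inflammasome cytokine, was at -4.76, -4.24 and -3.89 in WT and at -0.19, -4.20 and -3.80 in TSP-1-/-. Saa3, an acute-phase protein, was at 0.92 on TSP-1-/- replicate 1 and at -3.51 to -2.20 on the others. Il6, an inflammatory cytokine, was at 1.35 against -2.84 to -1.80, and Ptgs2, the inducible prostaglandin synthase, at 0.16 against -3.32 to -2.33. The same mouse was the highest for 15 of 15 interferon-regulated genes, whose median was 0.57 on it and -0.55, -0.29, -0.05, -0.57 and -0.45 on WT replicates 1 to 3 and TSP-1-/- replicates 2 and 3.

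Among 20 chemokines, 3 had an unadjusted p under 0.05, all higher (0.933% of all genes on that side). The median difference was 0.20, and with each array left out in turn it lay between 0.03 (without WT replicate 2) and 0.38 (without TSP-1-/- replicate 2). TSP-1-/- replicate 1 was the highest mouse for 10 of the 20, and without it the median was 0.05. Cxcl1 (probe 10523151), a neutrophil attractant, was at -3.70, -3.45 and -0.16 in WT and at 0.03, -0.03 and -0.22 in TSP-1-/-. All 3 TSP-1-/- mice were high, and so was WT replicate 3, so the groups overlapped (5.14-fold higher mean, log2 2.36, SE 0.82, unadjusted p = 0.0215). Without WT replicate 3 Cxcl1 was the 1 probe called (log2 3.50, limma adjusted p = 0.00322), and likewise without both arrays numbered 3 (log2 3.57, limma adjusted p = 0.00873). Its relative Cxcl2 was at -4.98, -4.52 and -4.83 in WT and at 0.68, -4.74 and -5.59 in TSP-1-/-, high in a single mouse. Cxcl9, a T cell attractant induced by interferon gamma, was at -1.54, -1.24 and -0.56 in WT and at 2.13, -0.53 and 0.06 in TSP-1-/- (log2 1.66, unadjusted p = 0.0285), with separated groups. Ccl7, a monocyte attractant, was at -1.97, -2.61 and -0.05 in WT and at 0.05, -0.50 and -0.23 in TSP-1-/- (log2 1.32), high in WT replicate 3 as Cxcl1 was.

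TSP-1-/- replicate 1 also carried pancreatic transcripts. Cpb1, pancreatic carboxypeptidase B, was at 4.40 on that array and at -0.13 to 0.06 on the other 5. Ctrb1, chymotrypsinogen, was at 3.75 against -0.35 to 0.13. The 10 pancreatic genes had a median of 1.22 on that array, of 0.02, -0.04 and 0.06 in WT and of -0.03 and 0.07 in the other TSP-1-/- mice, and 8 were highest there. Of the 67 probes with at least a 2-fold higher mean, TSP-1-/- replicate 1 was the most extreme of the 6 arrays for 55, and 18 stayed 2-fold higher without it. The part of the pancreatic genes in the other differences was not tested.

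**Figure D3:**
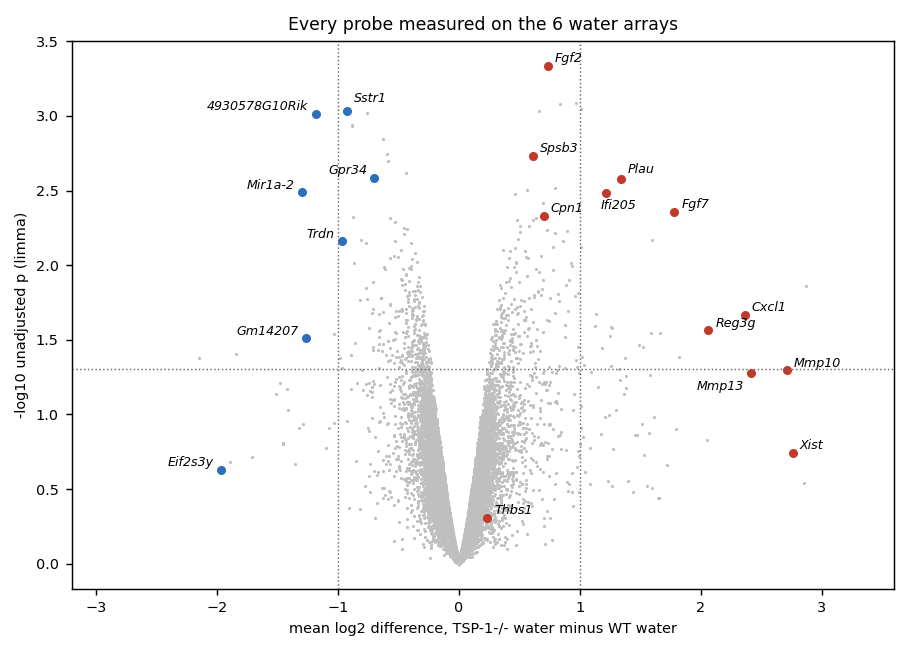
Mean log2 difference, TSP-1-/- water minus WT water (horizontal axis), against -log10 of the unadjusted limma p (vertical axis) for 28815 probes in grey, with genes named in the text in red (higher) and blue (lower). Dotted lines mark a 2-fold difference and the 0.05 level of the limma p; Xist, at 2.76, lies low, with 1 array carrying it, and Fgf2, at 0.73, lies highest.

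Of 12 macrophage and dendritic cell genes, 11 had a higher TSP-1-/- mean (median difference 0.31), and without TSP-1-/- replicate 1 the number was 11 (median 0.21). Without TSP-1-/- replicate 3 it was 9 (median 0.11). With TSP-1-/- replicates 1 and 3 both left out, 1 TSP-1-/- mouse remained and the median was -0.06. With each array left out in turn the median lay between -0.01 (without WT replicate 2) and 0.55 (without TSP-1-/- replicate 2), and WT replicate 2 was the lowest mouse for 10 of the 12. Cd68, a lysosomal protein of macrophages, was at -1.43, -1.83 and -1.01 in WT and at -0.64, -0.75 and -0.88 in TSP-1-/-, all TSP-1-/- above all WT (log2 0.67, SE 0.20, unadjusted p = 0.0111). C1qc and C1qa, complement subunits made by tissue macrophages, had overlapping groups and differences of 0.51 and 0.40. Of 12 fibroblast and collagen genes, 11 were higher (median 0.25), and 12 without replicate 1 (median 0.32). With each array left out in turn the median lay between 0.10 (without WT replicate 2) and 0.38 (without WT replicate 3), and it was 0.12 without TSP-1-/- replicate 3. WT replicate 2 was the lowest mouse for 8 of these 12 genes. Col3a1, a fibrillar collagen, was at -0.96, -1.14 and -0.53 in WT and at -0.42, -0.16 and -0.37 in TSP-1-/- (log2 0.56, SE 0.17, unadjusted p = 0.0118). Its groups were separated. Col1a2, another fibrillar collagen, differed by 0.43 and Pdgfra, a growth factor receptor that marks fibroblasts, by 0.44, both with overlapping groups.

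The 11 target genes of TGF-beta measured had a median difference of 0.14, and 9 were higher. With each array left out in turn the median lay between 0.04 (without TSP-1-/- replicate 2) and 0.20 (without WT replicate 1). WT replicate 2 was the lowest mouse for 6 of the 11. Ccn1, a matricellular protein induced by serum and TGF-beta, was at -1.08, -1.14 and -0.44 in WT and at -0.02, -0.19 and -0.26 in TSP-1-/-. All TSP-1-/- values lay above all WT values (1.66-fold, log2 0.73, SE 0.19, unadjusted p = 0.00577). It was the 1 gene of this list with an unadjusted p under 0.05 (0.933% of all genes on the higher side).

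The list of Paneth cell and antimicrobial genes had a median difference of 0.09 over 11 genes, with 7 higher and 4 lower. The differences ran from -0.90 to 2.06. Its members Reg3g and Reg3b, lectins that epithelial cells secrete against bacteria, varied between mice of each genotype. Reg3g was at -2.75, -0.75 and 0.17 in WT and at 1.91, 1.11 and -0.17 in TSP-1-/- (4.17-fold higher mean, SE 0.76 on the log2 scale, unadjusted p = 0.0272). Reg3b was at -3.18, -0.61 and 0.03 in WT and at 0.99, 0.74 and -0.03 in TSP-1-/- (3.53-fold, SE 0.74, unadjusted p = 0.0411). In each, WT replicate 1 was the lowest of the 6, TSP-1-/- replicates 1 and 2 were the highest, and the arrays numbered 3 of the genotypes lay close together.

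Marker genes of enteroendocrine cells, not all of them hormone genes, mostly had lower TSP-1-/- means. Of 18 genes, 16 were lower (median -0.29, between -0.37 and -0.16 with each array left out in turn). Of these, 1 had an unadjusted p under 0.05 (0.802% of all genes on the lower side) and 0 had separated groups (2.46% of all genes). The median was -0.11 without both arrays numbered 3. WT replicate 3 was the highest mouse for 11 of the 18 genes, and TSP-1-/- replicate 3 the lowest for 7. Gcg, which encodes glucagon-like peptides, was at -0.46, 0.26 and 0.09 in WT and at -0.55, -0.39 and -0.76 in TSP-1-/- (log2 -0.53, SE 0.20, unadjusted p = 0.0282). Cck, cholecystokinin, was at -0.61, -0.36 and 0.46 in WT and at -0.43, -0.93 and -0.86 in TSP-1-/- (log2 -0.57). Pyy, peptide YY of L cells, was at -0.03, 0.03 and -0.50 in WT and at -0.47, -0.09 and -1.68 in TSP-1-/- (log2 -0.58), lowest on TSP-1-/- replicate 3. Sst, somatostatin, differed by -0.29 and Nts, neurotensin, by -0.37, each with overlapping groups, and Sstr2, another somatostatin receptor, by -0.01. Enteric neuron markers were lower in 12 of 12 genes by a median of -0.11, with 0 at an unadjusted p under 0.05 (0.802% of all genes on the lower side). Their median lay between -0.25 (without WT replicate 1) and 0.00 (without WT replicate 3). It was 0.04 without both arrays numbered 3, where 7 of the 12 were higher.

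**Figure D4:**
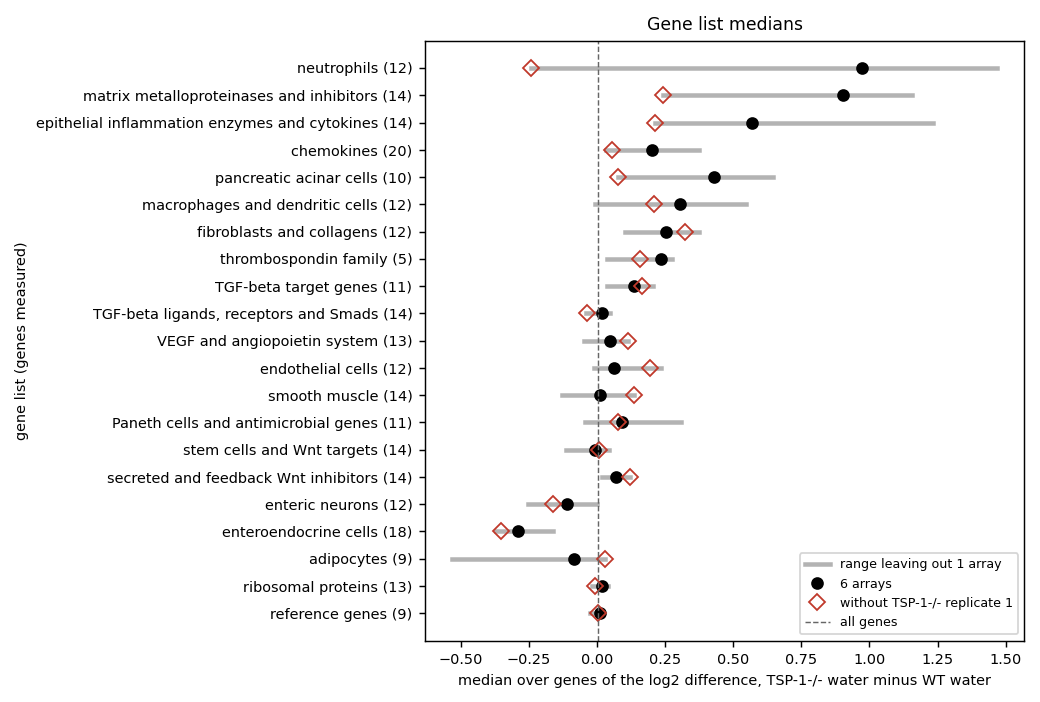
Median over the genes of a list of the log2 difference, TSP-1-/- water minus WT water (horizontal axis), for 21 gene lists (vertical axis, with the number of genes measured). Black circles use 6 arrays, open red diamonds leave out TSP-1-/- replicate 1, grey bars span the medians with each array left out in turn, and the dashed line is the median of all genes; the neutrophil median moves from 0.97 to -0.24, and the enteroendocrine bar lies below 0.

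The genes that the article tabulates for its AOM/DSS mice were chosen in comparisons that also used the water arrays, so their counts here are not independent evidence of a direction. Those listed as higher had a median water difference of 0.04 over 18 genes, and those listed as lower one of -0.03 over 14. Of the former, 1 had an unadjusted p under 0.05, and it was lower. This was Rab39b, a Rab GTPase, at -0.37, -0.35 and -0.18 in WT and at -0.81, -0.57 and -1.05 in TSP-1-/- (log2 -0.51, SE 0.15, unadjusted p = 0.00881). Of the latter, Sstr1 and Gm14207 were the 2 with an unadjusted p under 0.05 (0.802% of all genes on the lower side). The article reports these 2 genes as reduced in TSP-1-/- relative to WT mice, with and without treatment. They were thus picked in part from this same water comparison, and their values are a description. Here neither was called, and the mean of Sstr1 was 1.90-fold lower, under the 2-fold limit. Rfx4, a transcription factor of ciliated and neural cells, was at -0.09, -0.18 and 0.10 in WT and at -0.19, 0.00 and -0.03 in TSP-1-/- (log2 -0.01, SE 0.12). Between the treated genotypes it differed by 6.38, and the differences were unequal (limma interaction 6.39, adjusted p = 7.98e-06). Osr2, a zinc finger factor of connective tissue, differed on water by -0.05 and the Wnt inhibitor Wif1 by 0.17. Slc7a11, the cystine importer, was at 0.34 on TSP-1-/- replicate 1 and at -2.37 to -1.13 on the others. Prap1, a secreted protein of the intestinal epithelium, was at 0.63, 1.22 and 1.14 in WT and at 0.30, 0.91 and 0.40 in TSP-1-/- (log2 -0.46, unadjusted p = 0.0629).

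Genes around Thbs1 are given because a targeted allele is inherited together with its neighbourhood. Of 121 genes within 5 Mb of Thbs1 (order from GRCm38.p6), 15 had separated groups (12.4%, beside 4.83% of all genes measured), 6 higher and 9 lower in TSP-1-/-. Of these 121, 3 higher and 5 lower genes had an unadjusted p under 0.05, and the median absolute log2 difference was 0.08, as over all genes. The neighbours on either side, Rasgrp1, an activator of Ras in lymphocytes, and Fsip1, a protein of the sperm tail, differed by 0.06 and -0.09. Fam98b, a subunit of the tRNA ligase complex and the second gene before Thbs1, was at -0.07, -0.01 and 0.39 in WT and at -0.13, -0.25 and -0.25 in TSP-1-/-. Disp2, a membrane protein related to the hedgehog release factor Dispatched, was at -0.10, -0.06 and -0.28 in WT and at -0.58, -0.58 and -0.28 in TSP-1-/-. Both had separated groups, Disp2 narrowly. Exd1, a gene of the piRNA pathway, was at -0.01, 0.14 and -0.07 in WT and at 0.62, 0.43 and 0.27 in TSP-1-/- (unadjusted p = 0.0121). Spg11, a protein of lysosome recycling, was at 0.16, -0.11 and 0.19 in WT and at -0.31, -0.30 and -0.35 in TSP-1-/- (unadjusted p = 0.0105). Exd1 was higher and Spg11 lower in every TSP-1-/- mouse than in any WT mouse. Gm14207 also lies in this stretch, 29 measured genes after Thbs1.

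**Figure D5:**
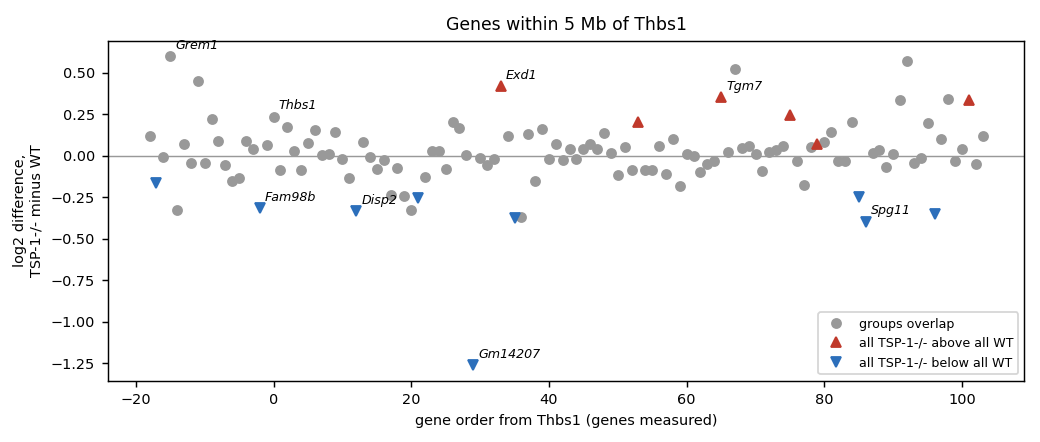
Log2 difference, TSP-1-/- water minus WT water (vertical axis), of Thbs1 and the 121 genes within 5 Mb of it in their order on the chromosome (horizontal axis, Thbs1 at 0). Red triangles mark the 6 genes on which all TSP-1-/- arrays lie above all WT arrays, blue triangles the 9 on which they lie below, and grey circles the rest; Gm14207 is lowest, at -1.26.

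Of 305 probes for microRNA genes and their host transcripts, all TSP-1-/- arrays lay above all WT arrays for 6 and below for 14 (2.29% and 2.88% of all probes), with a median difference of -0.01. The array does not distinguish a precursor from the mature molecule. Mir1a-2, a muscle microRNA gene, was at 0.39, 0.06 and 0.97 in WT and at -1.44, -0.60 and -0.42 in TSP-1-/- (2.45-fold lower mean, log2 -1.30, SE 0.31, unadjusted p = 0.00326). Mir505 was at 0.96, 0.31 and 0.29 in WT and at -0.45, -0.33 and 0.03 in TSP-1-/- (log2 -0.77, SE 0.21, unadjusted p = 0.00710). Mir200a, of a family that maintains epithelial identity, was at -0.01, -0.13 and -0.17 in WT and at 0.25, 0.26 and 0.28 in TSP-1-/- (log2 0.36, SE 0.10, unadjusted p = 0.00788). Its groups were separated in the other direction. Mir142, of blood cells, was at 0.02, 0.04 and -0.03 in WT and at -0.37, -0.18 and -0.30 in TSP-1-/- (log2 -0.29, unadjusted p = 0.0237). The mature products of Mir505 and Mir200a, 1 gene of each direction, are printed from RefSeq (GRCm38.p6), 5′ to 3′. Capitals mark the seed, bases 2 to 8, and no seed is shared among the 4.
mmu-miR-505-3p: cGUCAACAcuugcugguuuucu
mmu-miR-505-5p: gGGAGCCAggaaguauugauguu
mmu-miR-200a-3p: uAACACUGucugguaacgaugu
mmu-miR-200a-5p: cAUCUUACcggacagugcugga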

How the data were processed

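The authors hybridised colon RNA, amplified with a NuGEN Ovation kit, to Affymetrix MoGene 1.0 ST arrays. The deposited values are log2 signals, summarised and quantile normalized by the authors (PLIER16) and then set against a baseline per probe, so they hold differences and no absolute level. Of 28853 probes, 28815 had values on all 6 water arrays and 21788 of these had 1 gene symbol (19943 symbols). Arrays were grouped by GEO's labels. Groups were compared with limma 3.58.1 in R 4.3.3 (two-sided), with Benjamini-Hochberg adjustment over all probes, and a probe was called at an adjusted p under 0.05 where its means differed by 2-fold or more. The interaction used all 12 arrays. Scripts were tested on simulated data. Genes named were Thbs1 and the 10 smallest p in each direction among separated single-gene probes with at least 1.5-fold. The 5 largest differences in each direction were named too. From the 54 lists, the article, the stretch near Thbs1 and the genes on which an array stood farthest apart, only some were named. For TSP-1-/- replicate 1 those farthest below the other arrays were not named. Genes listed under more than 1 heading count under each. Members, lists and rules were chosen with earlier results of these data known. Adipoq, Mir200a and Mir142 were added after their values were seen. Nothing says that the mice of a group were from separate litters or cages. The alternatives tried are given in the closing section.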

Additional observations from a re-analysis of the deposited data

Results flagged for a closer look

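The genotype difference (TSP-1-/- minus WT) on the AOM/DSS arrays was tested against that on the water arrays for 28815 probes, with limma on all 12 arrays, and 2 had an adjusted p under 0.05. For Rfx4, a transcription factor of ciliated and neural cells, it was -0.01 on water and 6.38 after AOM/DSS, unequal by 6.39 (SE 0.34, adjusted p = 7.98e-06). For Atp6v0d2, a subunit of the vacuolar proton pump, it was -0.06 and 2.93, unequal by 2.99 (SE 0.32, adjusted p = 0.0115). The array sets were deposited on different baselines, and the contrast cancels 1 offset per probe between them.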

How the results depend on the processing

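No probe was called under 14 of the 17 alternatives with a test, and 1 was called under each of the other 3. Cxcl1 was called higher without WT replicate 3 and without both arrays numbered 3, and 1 probe with no gene symbol (10538924, at 3.54, -0.37 and 2.97 in WT and at 0.11, -0.29 and -0.13 in TSP-1-/-) was called lower without WT replicate 2 (limma adjusted p = 0.0316), so that leaving out each array in turn gave 0 to 1 calls in each direction. The 565 probes at an unadjusted p under 0.05 became 431 to 2011 with each array left out in turn (431 without WT replicate 2, 2011 without TSP-1-/- replicate 3), 288 with the spread of all 12 arrays, 1371 with array weights, 1594 without TSP-1-/- replicates 1 and 3 and 1730 without both arrays numbered 3, the first of these left-out pairs having been chosen after seeing the data. With the replicate number as a block there were 993 such probes and 0 calls. Arrays of the same number had correlated deviations in 3 of 3 pairs (r = 0.093, 0.281 and 0.402), but TSP-1-/- replicate 1 correlated best with WT replicate 2 (r = 0.183), and the first of the pairs was under 0.1, so the numbers were not taken to pair the mice. With array weights the sign turned for Hoxb13 (0.26), Rfx4 (0.0019). Without TSP-1-/- water replicates 1 and 3 the sign turned for Thbs1 (-0.017), Eif2s3y (0.041), S100a8 (-0.63), S100a9 (-0.81), Cxcr2 (-0.40), Mmp8 (-0.64), Mmp3 (-0.067), Pyy (0.075), Hoxb13 (2.06), Thbs3 (-0.10), Comp (-0.011), Rfx4 (0.062), Fsip1 (0.039). Without both arrays numbered 3 the sign turned for Eif2s3y (0.19), Kdm5d (0.070), Thbs3 (-0.0098), Rfx4 (0.046), Osr2 (0.028). With each array left out in turn the sign turned for these genes, with their range: Atp6v0d2 (-0.20 to 0.021), Cxcl2 (-0.39 to 2.74), Cxcr2 (-0.33 to 1.70), Eif2s3y (-3.10 to 0.17), Hoxa13 (-0.83 to 1.96), Hoxb13 (-2.13 to 1.82), Kdm5d (-2.88 to 0.036), Ly6g (-0.77 to 2.77), Mmp3 (-0.066 to 2.62), Mmp7 (-0.11 to 0.22), Mmp8 (-0.57 to 1.74), Osr2 (-0.34 to 0.30), Rasgrp1 (-0.090 to 0.20), Rfx4 (-0.075 to 0.067), S100a8 (-0.48 to 2.48), S100a9 (-0.45 to 2.80), Sstr2 (-0.085 to 0.069), Thbs1 (-0.11 to 0.47), Thbs3 (-0.15 to 0.18), Thbs4 (-0.39 to 1.75), Uty (-2.08 to 0.038). Of the 91 genes named, 67 kept their sign under all 17 alternatives. Genes chosen for separated groups cannot change sign when arrays are left out. Several alternatives, such as the spread of all 12 arrays, leave the mean difference itself unchanged. The count is therefore partly fixed by the choice and does not measure how stable the differences are. Only 3 mice per group limit what can be detected, and values relative to a baseline do not show signal over background.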
